A study of Homo sapiens with 12 samples.

Results

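MDA-MB-231 cells that received both dexamethasone (DEX) and SH4-54 were compared with cells that received neither compound. The comparison rests on 6 of the 12 RNA-seq libraries, chosen by their labels alone: 3 wells with both compounds and 3 wells with no drug. Of 26364 genes in the count table, 14184 held enough reads to be tested. MDA-MB-231 is an established human breast cancer cell line of the receptor-negative, mesenchymal kind. DEX, a synthetic glucocorticoid, was given at 1 µM, and SH4-54, an inhibitor directed at the SH2 domains of STAT3 and STAT5, at 8 µM, each for 24 h. Wells with DEX alone and wells with SH4-54 alone, 3 of each, served here to show what each compound did by itself. The sources used here do not say whether the no-drug wells received solvent. Replicates are wells of 1 cell line, and p-values therefore speak only of well-to-well spread, which may be technical.

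The glucocorticoid receptor is a transcription factor that moves to the nucleus once a glucocorticoid binds it. There it activates genes that carry its response element and restrains the inflammatory programme driven by NF-kB and AP-1. STAT3 and STAT5 are transcription factors activated by tyrosine phosphorylation downstream of cytokine receptors, and STAT3 can act together with the glucocorticoid receptor at shared genes. Heat shock factors, NRF2, ATF4 and the sterol-regulated SREBP proteins each control a gene set that answers a different kind of stress. In that order the stresses are unfolded protein, oxidants, amino acid shortage and low sterol.

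Totals ranged from 26280158 to 35758236 counts in the combination wells and from 28439725 to 31552360 in the no-drug wells. Levels are given in CPM, counts per 1000000 library counts, after scaling by the trimmed mean of M-values. Of 8 markers fixed for MDA-MB-231, 7 were tested, and VIM, CD44, AXL, EGFR, CAV1, MSN and ZEB1 were all present, while SPARC, the eighth marker, and the estrogen receptor gene ESR1 were too low to test. The progesterone receptor gene PGR lay at 0.282, 0.365 and 0.316 CPM in the no-drug wells and 0.155, 0.181 and 0.168 CPM in the combination wells. Of 3 receptor markers fixed as low or absent in this line, 2 were tested. Their summed level was 75.7 to 76.9 CPM with no drug and 83.4 to 87.1 CPM with both, so nearly all of it was not PGR. The tested marker other than PGR rose by 0.16 on the log2 scale. Of 10 immune markers 3 were tested: CD68, a lysosomal protein used as a macrophage marker, rose by 0.22 on the log2 scale with both compounds against no drug (adjusted p = 0.00209), while CD14 and PTPRC had log2 differences of -0.61 and -0.76 (adjusted p = 0.0798 and 0.134). The summed level of the 10 was 42.1 to 44.4 CPM in the no-drug wells and 48.6 to 53.7 CPM in the combination wells, nearly all of it CD68, with CD3E, a T cell marker, at 0 in both. Of 10 endothelial and fibroblast markers 5 were tested. KDR, a VEGF receptor, rose from 3.76, 3.38 and 2.5 CPM to 5.98, 5.87 and 8.46 CPM (adjusted p = 0.000178), DCN, decorin, from 0, 0 and 0.0351 CPM to 0.311, 0.254 and 0.589 CPM (adjusted p = 0.000297), and PECAM1, an endothelial adhesion molecule, fell from 1.1, 1.03 and 0.773 CPM to 0.272, 0.29 and 0.392 CPM (adjusted p = 0.00093). LUM and ACTA2 had log2 differences of -0.61 and -0.48 (adjusted p = 0.172 and 0.214). The summed level of these 10 was 5.03 to 7.26 CPM with no drug, 12.02 to 12.92 CPM with DEX and 7.65 to 10.99 CPM with both, and CDH5, VE-cadherin, was at 0 in the no-drug and combination wells. The part of these markers in other results was not tested. On the second principal component, which held 17.5% of the variance, the combination wells lay at -22.3, -31.4 and -13.0 for wells 1, 2 and 3, further apart than the wells of any other group. What set the combination wells apart from each other was not tested. Results that rest on 1 of them are given with and without it.

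With both compounds, 2992 genes rose and 3059 fell against no drug, which is 21.1% and 21.6% of the genes tested (edgeR quasi-likelihood test, Benjamini-Hochberg adjusted p under 0.05). Changes of at least 2-fold were fewer: 299 rises (2.11%) and 259 falls (1.83%). For 7286 genes (51.4%) the combination and no-drug wells did not overlap. Because a p above the threshold does not show that a gene is back at its control level, a gene was called near the no-drug level where the 95% interval of its fold change lay wholly within 0.32 log2 units of 0, and 6791 genes (47.9%) met that. A gene can be both called and near, since small differences were measurable: the median standard error was 0.06 on the log2 scale. The shares of 21.1% risen, 21.6% fallen and 47.9% near are the background for the list counts below. In bulk RNA, fewer cells of a kind and less RNA per cell cannot be told apart.

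**Figure D1:**
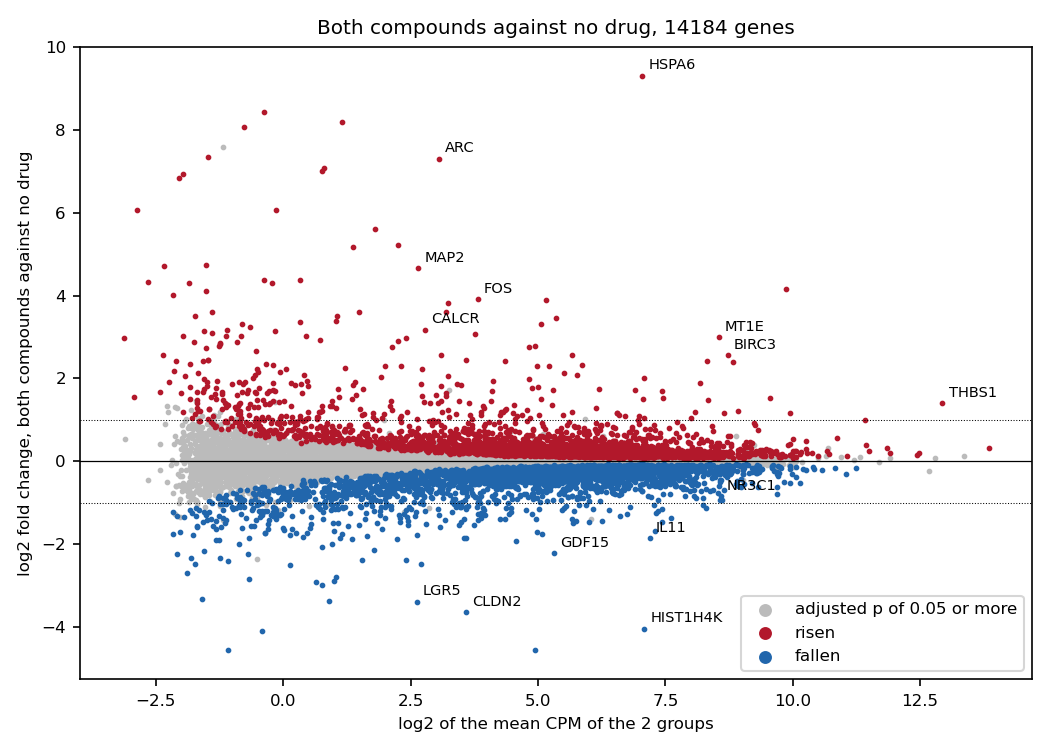
Log2 fold change of both compounds against no drug (vertical axis) over the log2 of the mean CPM of the 2 groups (horizontal axis) for 14184 genes. Red points are the 2992 genes that rose, blue points the 3059 that fell, grey points the rest, and the dotted lines mark 2-fold. HSPA6 has the largest rise, and THBS1 rose by 1.39 at a high level.

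For comparison, DEX alone changed 6397 genes (45.1%) and SH4-54 alone 85 (0.599%) against the same no-drug wells. The near limit was met by 6546 of 14184 genes with DEX alone and by 9384 with SH4-54 alone. Being near the no-drug level with both compounds is therefore not in itself a return. Measured directly against DEX alone, the combination wells differed at 3770 genes (26.6%): 1851 were higher (13%) and 1919 lower (13.5%). That total was 2213 without combination well 2. The interaction term, which asks whether the effect of DEX differed with SH4-54 present, was called for 553 genes (3.9%), positive in 346 (2.44%) and negative in 207 (1.46%). It ranged from 204 to 2046 when 1 library was left out, lowest without DEX well 2 and highest without combination well 3. The SH4-54 total ranged from 26, without no-drug well 2, to 163, without combination well 3. These comparisons share wells with the main one, so their values are set side by side and are not independent of it.

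Of the genes that encode the drug targets, NR3C1 had the largest change. NR3C1, the gene of the glucocorticoid receptor, was measured at 499.9, 488 and 493 CPM in the no-drug wells and 285, 271 and 272 CPM in the combination wells, and fell by 0.84 on the log2 scale (SE 0.03, adjusted p = 1.31e-11). With DEX alone the log2 difference was -0.84. The groups did not overlap, with means of 276 CPM with both and 494 CPM with no drug.

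STAT3 stood at 197, 201 and 201 CPM with no drug and 203, 194 and 220.4 CPM with both, a log2 difference of 0.04 (SE 0.04, adjusted p = 0.396), and its wells overlapped. STAT5B fell by 0.16 on the log2 scale (adjusted p = 0.00622). STAT5A had a log2 difference of 0.21 (adjusted p = 0.0372) that did not pass with DESeq2, without the count filter, or in 6 of the fits that left out 1 library. SOCS3, the feedback inhibitor that STAT3 induces, lay at 83.1, 80.9 and 84.3 CPM and 82.1, 82.3 and 74.8 CPM (log2 difference -0.06, adjusted p = 0.322).

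Most genes that glucocorticoids induce rose with both compounds. Of 23 tested members of this list, 20 rose and 1 fell against no drug, with a median log2 fold change of 1.89, beside 0.00 over all tested genes; with DEX alone the counts were 20 and 1 and the median 1.75. Near the no-drug level were 2 members, or 1 without no-drug well 1, no-drug well 3, DEX well 1, SH4-54 well 2 or combination well 3. ZBTB16, a zinc finger repressor, had no read in any no-drug well and was at least 15.5-fold higher with both compounds, taking 3 counts over the group as the floor; the list's median is the same with it at that bound.

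TSC22D3, which encodes the anti-inflammatory protein GILZ, was measured at 7.29, 6.3 and 6.85 CPM with no drug and 77.7, 61.3 and 87.5 CPM with both, an 11.1-fold rise (log2 3.47, SE 0.12, adjusted p = 1.89e-11). Every combination well lay above every no-drug well, and the DEX wells stood at 85.8, 87.8 and 84 CPM.

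ANGPTL4, an inhibitor of lipoprotein lipase, rose by 3.88 on the log2 scale, BIRC3, an inhibitor of apoptosis, by 2.56, PER1, a clock repressor, by 2.97 and DUSP1, a phosphatase of MAP kinases, by 1.89. With DEX alone their log2 values were 3.99, 2.41, 2.94 and 1.75. In the direct test 6 members were higher with both compounds than with DEX alone and 8 were lower. The higher count was 2 without DEX well 1 or combination well 1 and 3 without DEX well 3 or combination well 2, and the lower count was 5 without combination well 2 and in a fit of the compared groups alone. FKBP5, a cochaperone of the receptor that dampens its hormone binding, was at 53.7, 55.6 and 52.4 CPM with no drug, 325, 345 and 309.7 CPM with DEX and 202, 181 and 271 CPM with both; it rose by 2.02 against no drug (SE 0.11, adjusted p = 1.63e-09) and lay -0.58 on the log2 scale from DEX alone (adjusted p = 0.000963).

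Combination well 3 held the highest FKBP5 level of its group, below every DEX well. MAOA, which degrades monoamines, and KLF9, a Krüppel-like factor, showed the same order, with log2 differences of -0.46 (adjusted p = 0.000361) and -0.72 (adjusted p = 0.00354) between both compounds and DEX alone. SGK1, a kinase that regulates ion channels, went the other way: it rose by 2.07 against no drug and was 0.74 higher than with DEX alone (adjusted p = 0.000142). TNFAIP3, an inhibitor of NF-kB, BIRC3 and DUSP1 were among the higher members too, by 0.27, 0.15 and 0.15 (adjusted p = 0.0274, 0.0178 and 0.0286).

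Most metallothioneins, which bind zinc and are classical glucocorticoid targets, rose. Of 8 tested genes of the metallothionein and zinc list, 7 rose and 1 fell, the median log2 fold change was 1.57, and with DEX alone it was 1.67. MT1E went from 80.1, 84.2 and 84.3 CPM to 709, 601 and 685 CPM and MT2A from 143, 148 and 143 CPM to 805, 709 and 778 CPM, with no overlap between groups. The member that fell was SLC30A1, a zinc exporter (log2 -0.40, adjusted p = 1.3e-06). Metallothionein genes are close copies of each other, so how reads were divided among them is uncertain.

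Most genes of mitosis fell. Of 25 tested members of the G2/M and mitosis list, 24 fell with both compounds and 24 with DEX alone, with medians of -0.50 and -0.53 on the log2 scale. CDC20, the activator of the anaphase-promoting complex, was the member near the no-drug level (2 members were near without no-drug well 2, combination well 1 or combination well 3), with a log2 difference of 0.09 (adjusted p = 0.144); without combination well 3 it passed as a rise. KIF20A, a kinesin of cytokinesis, was measured at 338, 344 and 346 CPM with no drug and 186, 207 and 176 CPM with both and fell by 0.85 (SE 0.04, adjusted p = 1.4e-09).

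CENPE, a kinetochore motor, fell by 0.85 as well and CENPF, another kinetochore protein, by 0.78. TOP2A, which untangles replicated chromosomes, fell from 1324, 1351 and 1312 CPM to 927, 932 and 908 CPM. No combination well of KIF20A, CENPE, CENPF or TOP2A reached its lowest no-drug well. PLK1, the mitotic kinase, stood at 73.2, 69.5 and 69.1 CPM and 47.2, 60.6 and 48.3 CPM (log2 -0.44, adjusted p = 0.00019), with combination well 2 closest to the controls.

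The cell cycle homology region, searched as TTTGAA on both strands, was found in the RefSeq promoter window (250 bases before to 50 after the start, GRCh38.p14) of 12 of 20 list members with an entry (60.0%), beside 15.4% of all 27305 promoters. It is known as a site of cell cycle control in late cell cycle genes. The 150 bases before the start are shown for 3 members that fell and hold a match, 5′ to 3′ along the gene's strand, with the match in capitals; they were picked because they hold one.
PLK1, plus strand, chr16:23678739-23678888: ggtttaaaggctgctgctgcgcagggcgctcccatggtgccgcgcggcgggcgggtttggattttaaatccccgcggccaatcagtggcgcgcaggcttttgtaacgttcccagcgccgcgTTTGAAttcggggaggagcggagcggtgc
KIF11, plus strand, chr10:92592980-92593129: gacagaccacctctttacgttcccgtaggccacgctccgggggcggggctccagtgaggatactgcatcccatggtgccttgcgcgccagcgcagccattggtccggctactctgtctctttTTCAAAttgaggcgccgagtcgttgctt
CCNB2, plus strand, chr15:59104996-59105145: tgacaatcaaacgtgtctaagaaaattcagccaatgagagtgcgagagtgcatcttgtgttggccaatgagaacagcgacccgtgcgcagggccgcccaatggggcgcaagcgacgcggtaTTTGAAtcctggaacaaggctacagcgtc
KIF11, a spindle kinesin, fell by 0.59 and CCNB2, cyclin B2, by 0.53. In these windows the match begins 29, 28 and 29 bases before the start of PLK1, KIF11 and CCNB2. A match describes the letters and is not evidence of binding.

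**Figure D2:**
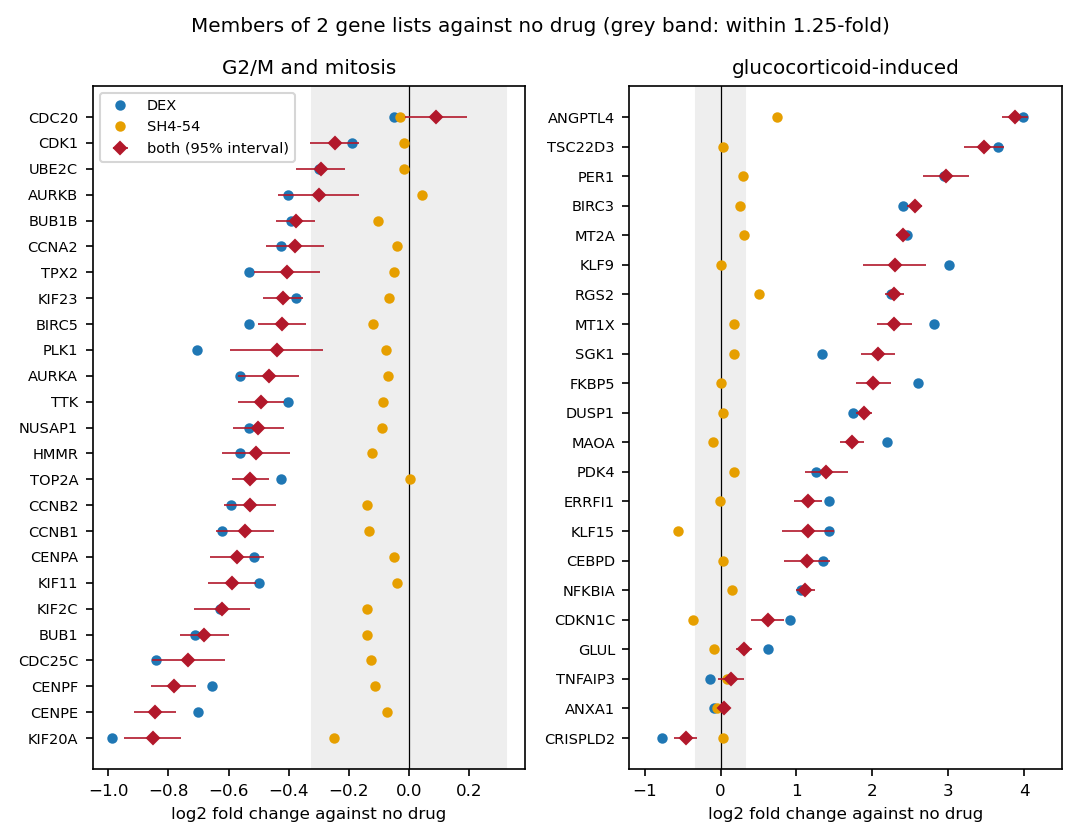
Log2 fold change against no drug for each tested member of the G2/M list (left) and the glucocorticoid-induced list without ZBTB16 (right), with DEX in blue, SH4-54 in orange and both compounds as red diamonds with 95% intervals; the grey band is the near limit of 0.32. On the left the red and blue points have medians of -0.50 and -0.53, and the median with SH4-54 alone was -0.08. In the direct test 7 of 25 members differed between both compounds and DEX, 4 higher and 3 lower with both. When 1 library was left out, the higher count was 0 to 6 and the lower count 1 to 4. Of the 23 tested members of the other list 14 differed.

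Most DNA replication genes were near the no-drug level, as they were with each compound alone. Of 25 tested members, 23 were near it with DEX alone and 25 with SH4-54 alone. With both compounds 22 were near it, 2 rose and 5 fell, with a median of 0.00. The falls numbered 3 without no-drug well 2 or 3, and the rises 5 without combination well 3. The helicase subunit MCM2 lay at a log2 difference of 0.05 (adjusted p = 0.334). Among the 13 genes of G1 cyclins and inhibitors, 4 rose and 6 fell. CDKN1A, which encodes the inhibitor p21, rose from 60.3, 57 and 54.4 CPM to 135, 129 and 124 CPM (log2 1.17, adjusted p = 1.08e-10), and CDKN1B, which encodes p27, fell from 85.9, 89.3 and 86 CPM to 55, 53.1 and 54.1 CPM (adjusted p = 6.57e-10).

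Heat shock genes rose more often with both compounds than they fell. Of 24 tested members, 13 rose and 4 fell with both, with a median of 0.13, and 14 were near the no-drug level. With DEX alone 4 rose and 8 fell (4 became 2 without no-drug well 2), against backgrounds of 21.9% and 23.2%, and the median was -0.05. In the direct test against DEX alone, 17 members were higher and 0 lower by the edgeR quasi-likelihood test; the lower count was 0 at an unadjusted p under 0.05 and 0 by DESeq2. With SH4-54 alone 1 member rose, and the median was 0.02. HSPA6, an inducible HSP70 that is nearly silent without stress, was at 0.501, 0.265 and 0.457 CPM with no drug, 0.232, 0.308 and 0.641 CPM with DEX, 25.4, 27.1 and 19.4 CPM with SH4-54 and 150.3, 483 and 156 CPM with both.

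The rise of HSPA6 against no drug was 9.31 on the log2 scale (SE 0.61, adjusted p = 1.35e-08), and its combination wells lay above all wells of the other groups, with the SH4-54 wells next. HSPA6 has a near-identical copy, HSPA7, so its reads are uncertain: HSPA7 held 9, 196 and 1661 counts in combination wells 1, 2 and 3, no more than 1 in any other well, and was not tested. CRYAB, a small heat shock protein, had no read in any no-drug well and was at least 46.3-fold higher with both compounds, on the same floor.

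DNAJB1, the partner that delivers clients to HSP70, stood at 161, 161 and 161 CPM and 248, 294 and 229 CPM (log2 0.67, SE 0.06, adjusted p = 6.72e-07), with no overlap. HSPB1, another small heat shock protein, rose by 0.81 and BAG3, which links HSP70 to autophagy, by 0.63. HSPA1A and HSPA1B, which encode the same inducible HSP70 and whose reads cannot be divided with certainty, rose by 2.25 and 1.07 from under 3 CPM. HSPH1, which DEX alone lowered by 0.44, was near the no-drug level with both (log2 0.03, adjusted p = 0.655). The constitutive HSPA8 had a log2 difference of 0.14 (adjusted p = 0.0291) that missed the threshold in a fit of the compared groups alone (adjusted p = 0.115) and without no-drug well 1, no-drug well 2, combination well 1 or combination well 2.

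The heat shock element, searched on both strands, was in 5 of 22 promoter windows of list members (22.7%), beside 0.487% of all 27305. It is the site that heat shock factors bind as trimers. Windows of 3 members that hold it are shown in the same way, picked because they hold it, with the match in capitals.
HSPA6, plus strand, chr1:161524390-161524539: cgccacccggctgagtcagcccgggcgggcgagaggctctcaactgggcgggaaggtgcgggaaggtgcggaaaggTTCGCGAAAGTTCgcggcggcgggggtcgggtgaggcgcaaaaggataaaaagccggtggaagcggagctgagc
SERPINH1, plus strand, chr11:75562103-75562252: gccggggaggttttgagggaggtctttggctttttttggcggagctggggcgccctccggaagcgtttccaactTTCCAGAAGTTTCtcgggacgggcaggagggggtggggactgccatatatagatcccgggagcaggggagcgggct
HSPA8, minus strand, chr11:123062137-123062286: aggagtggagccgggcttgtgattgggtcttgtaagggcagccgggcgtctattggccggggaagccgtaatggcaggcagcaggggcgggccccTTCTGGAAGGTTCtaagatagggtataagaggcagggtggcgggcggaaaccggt
Holding the element did not go with 1 size of change: HSPA6 rose by 9.31, while SERPINH1, a collagen chaperone, differed by 0.10 (adjusted p = 0.0313, above the threshold with a replicate block, at 0.0502, and without no-drug well 2, no-drug well 3 or combination well 2). Of the other motifs searched on both strands, the amino acid response element TGATGNAAN was in 5 of 21 windows of the ATF4 list (23.8%), beside 3.67% of all. The sterol element TCACNCCAC was in 1 of 18 windows of the cholesterol list (5.6%), beside 1.15%. The antioxidant response element was in 1 of 17 of the NRF2 list (5.9%), beside 3.26%. In the immediate-early list, TGACGTCA was in 1 of 17 (5.9%), beside 1.98%, and the AP-1 site TGANTCA in 1 of 17 (5.9%), beside 7.76%. A share that rests on 1 window shows neither an excess nor a lack. The glucocorticoid response element was in none of 21 windows of glucocorticoid-induced genes, beside 0.388% of all, which says only that those letters are not in this window.

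Immediate-early genes, which encode fast transcription factors of growth and stress signalling, rose more often than they fell. Of 21 tested, 11 rose and 5 fell with both compounds, with a median of 0.45, while with DEX alone 2 rose and 9 fell, with a median of -0.28 (4 rose when combination well 3 was left out of the fit). With SH4-54 alone 3 rose and the median was 0.22. FOS was at 1.85, 1.66 and 1.69 CPM with no drug, 1.32, 1.13 and 1.13 CPM with DEX, 7.35, 6.98 and 4.75 CPM with SH4-54 and 24.1, 37.5 and 17.6 CPM with both, a log2 rise of 3.92 (SE 0.26, adjusted p = 1.81e-08). ARC, known as a synaptic immediate-early gene, went from 0.0939, 0.133 and 0.0703 CPM to 15.7, 23.5 and 10.6 CPM, with 3.33, 3.19 and 2.7 CPM under SH4-54 alone.

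FOSB rose by 5.23, EGR1, a zinc finger factor induced by growth signals, by 3.39, and ATF3, a stress-induced repressor, by 1.85. JUN stood at 68.3, 70.4 and 73.3 CPM with no drug, 42.1, 44.2 and 41.6 CPM with DEX and 97.1, 116 and 77.4 CPM with both (log2 0.45 against no drug, adjusted p = 0.00141). In FOS, ARC, FOSB, EGR1, ATF3 and JUN, all 3 combination wells lay above all 3 no-drug wells, with well 2 highest and well 3 lowest. The median level of the list followed the same order of wells, at 0.46, 0.71 and 0.13 above the no-drug mean for wells 1, 2 and 3. The members that fell include SPRY2, a feedback inhibitor of receptor tyrosine kinases (log2 -0.84), and FOSL2 (log2 -0.46).

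With both compounds, 11 genes differed at least 2-fold, in 1 direction, from no drug, DEX alone and SH4-54 alone and reached 5 CPM. Of them 10 rose. The rule did not require that either compound alone leave the gene unchanged. The interaction term was called for CCL26, FOS, SNAI1, PTGS2 and ATF3 and not for the other genes of the rule. The PTGS2 call was lost in 10 of the fits that left out 1 library. Over all genes, 1.15% and 2.05% were at least 2-fold higher with both than with DEX alone and SH4-54 alone, and 0.31% and 1.49% lower. The rises were HSPA6, ARC, MMP3, FOSB, FAM166A, FOS, CCL26, SNAI1, PTGS2 and ATF3. CCL26, a chemokine for eosinophils, was at 2.79, 2.88 and 3.02 CPM with no drug, 0.812, 1.1 and 1.02 CPM with DEX, 7.42, 7.02 and 6.17 CPM with SH4-54 and 23.6, 32.7 and 17 CPM with both (log2 3.07 against no drug, adjusted p = 1.14e-08). The fall was LIPG, endothelial lipase, from 19.3, 20.7 and 17 CPM to 5.01, 3.73 and 6.7 CPM (log2 -1.86, adjusted p = 1.44e-07).

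**Figure D3:**
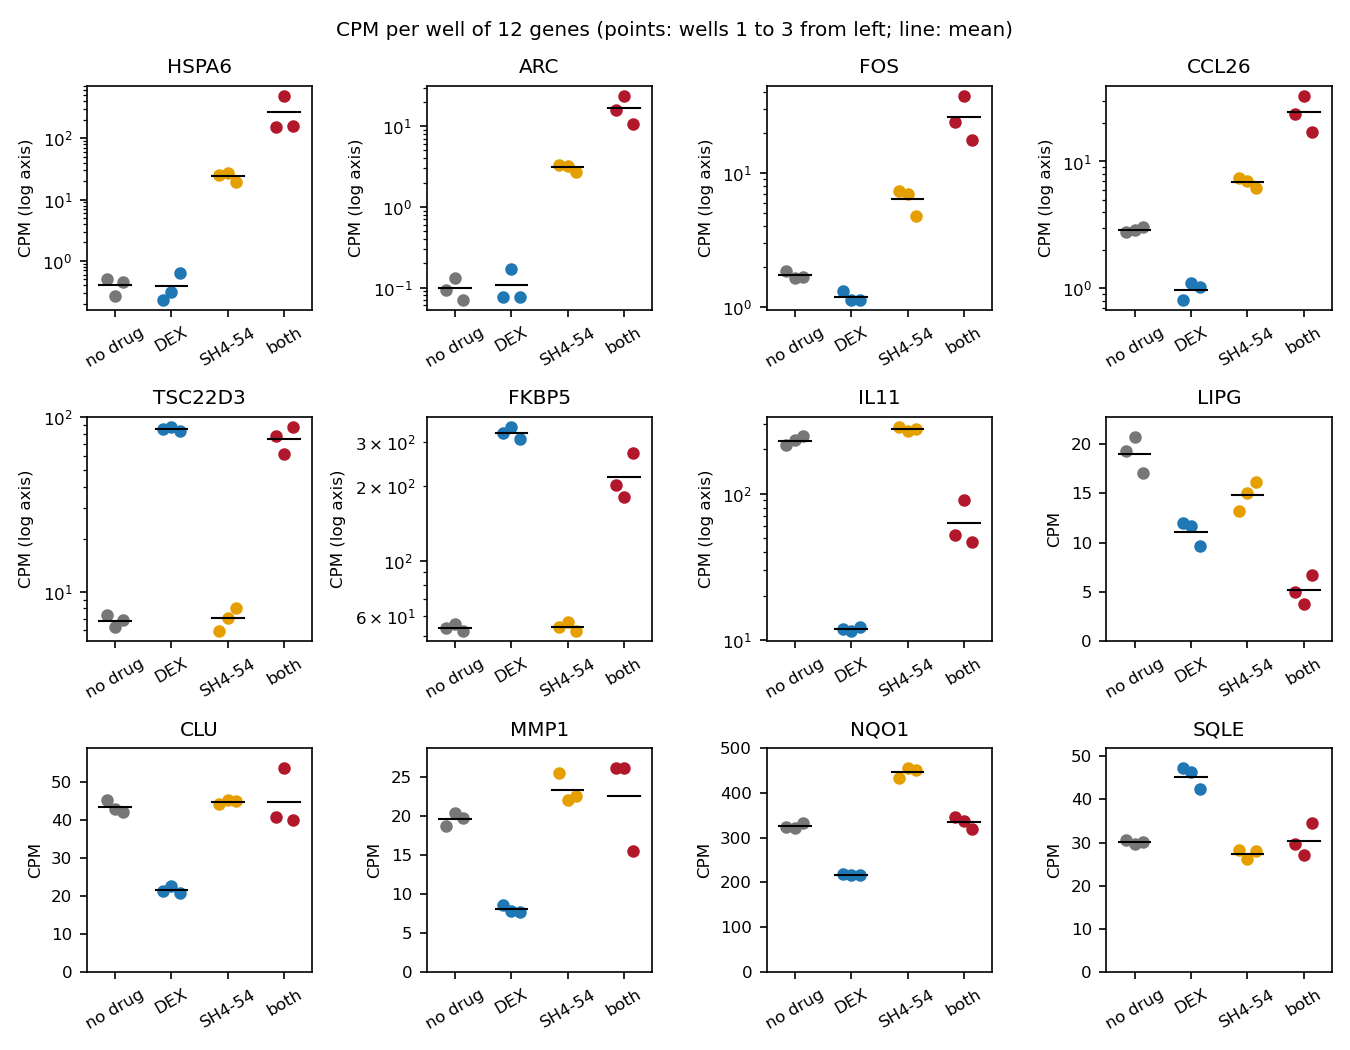
CPM in each of the 12 wells for 12 genes, on a log axis for HSPA6, ARC, FOS, CCL26, TSC22D3, FKBP5 and IL11 and on an axis from 0 for the others; points are wells 1 to 3 from left to right and lines are group means. TSC22D3 and FKBP5 are high with DEX with or without SH4-54, HSPA6 and ARC are highest with both, and CLU, NQO1 and SQLE with both lie around their no-drug level.

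Most cholesterol synthesis genes rose with DEX alone and were near the no-drug level with both compounds. Of 25 tested members, 16 were near the no-drug level, 9 fell and 0 rose by the edgeR quasi-likelihood test, with a median of -0.12; the count of rises was 0 at an unadjusted p under 0.05 and 0 by DESeq2. With DEX alone, 21 rose and 0 fell (0 at an unadjusted p under 0.05 and 0 by DESeq2), with a median of 0.35, and in the direct test 24 were lower with both than with DEX alone. With SH4-54 alone the median was -0.19. SQLE, the epoxidase that commits squalene to sterols, was at 30.7, 29.7 and 30.2 CPM with no drug, 47.2, 46.3 and 42.4 CPM with DEX and 29.7, 27.2 and 34.4 CPM with both, a log2 difference of 0.02 from no drug (SE 0.07, adjusted p = 0.874).

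The combination wells of SQLE lay within, below and above the no-drug range for wells 1, 2 and 3, and all lay below the DEX wells. CYP51A1, which demethylates lanosterol, differed from no drug by 0.02 and DHCR7, which completes cholesterol, by -0.05, against 0.56 and 0.52 with DEX alone. INSIG1, which holds SREBP in the endoplasmic reticulum, was at 117, 123 and 109 CPM with no drug, 111, 116 and 108 CPM with DEX and 48.8, 41 and 62.9 CPM with both, and fell by 1.19 (SE 0.11, adjusted p = 4.07e-07).

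STARD4, a sterol carrier, fell by 0.60. The list's median level was -0.15, -0.24 and 0.03 in combination wells 1, 2 and 3, so that well 3 lay highest. Without combination well 3, DHCR7, LSS, the lanosterol synthase, and MSMO1, a methylsterol oxidase, passed as falls, with adjusted p of 0.0204, 0.000956 and 0.00502.

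Fatty acid genes were mixed, with 3 rises, 5 falls and 7 of 16 tested near the no-drug level (8 with DEX alone). Over all genes the shares were 21.1%, 21.6% and 47.9%. SCD, the stearoyl-CoA desaturase, fell from 381, 356 and 324 CPM to 179.6, 149 and 248 CPM (log2 -0.88, adjusted p = 3.86e-05), and SREBF1, which encodes SREBP-1, fell by 0.68. ELOVL1, an elongase, rose by 0.48, and FADS1, a desaturase raised by DEX alone, was near the no-drug level (log2 -0.02, adjusted p = 0.683).

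More NRF2 target genes, which protect against oxidants, rose than fell. Of 24 tested, 14 rose, 3 fell and 12 were near it, with a median of 0.13, while with DEX alone 5 rose and 11 fell, with a median of -0.13, and with SH4-54 alone 6 rose, with a median of 0.14. NQO1, a quinone reductase, was at 324, 321 and 333 CPM with no drug, 218, 217 and 217 CPM with DEX, 434, 455 and 450.3 CPM with SH4-54 and 346, 338 and 320.0 CPM with both. Its log2 difference was 0.04 (SE 0.03, adjusted p = 0.395) against no drug, and -0.59 for DEX alone.

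HMOX1, heme oxygenase, rose from 15.7, 14.5 and 15.9 CPM to 29.8, 37.3 and 27 CPM (log2 1.03, adjusted p = 6.69e-07), and FTH1, the ferritin heavy chain, from 298, 298 and 279.6 CPM to 674, 616 and 734 CPM (adjusted p = 2.17e-10). The groups did not overlap for either gene. SLC7A11, which imports cystine for glutathione, fell by 0.54, and GCLM, a subunit of the enzyme that starts glutathione synthesis, differed by 0.03 (adjusted p = 0.631).

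**Figure D4:**
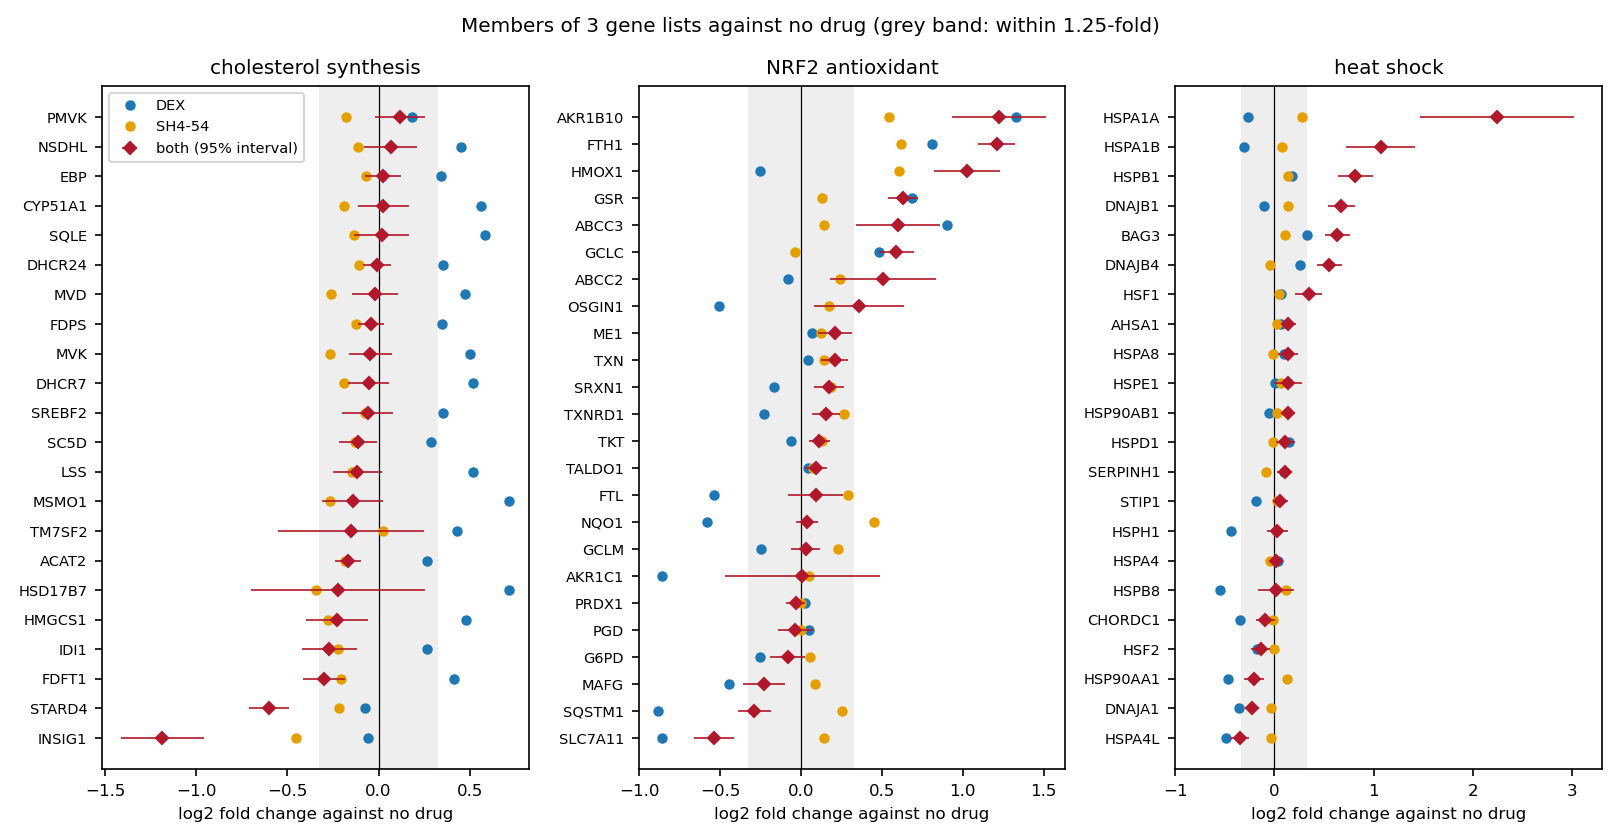
Log2 fold change against no drug for tested members, as far as reported here, of the cholesterol synthesis list, the NRF2 list and the heat shock list without HSPA6 and CRYAB, with DEX in blue, SH4-54 in orange and both compounds as red diamonds with 95% intervals; the grey band is the near limit of 0.32. In the cholesterol panel most blue points lie to the right of 0 and most red intervals lie in the band; in the other panels many red points lie in the band or to its right.

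In the ATF4 list, which covers amino acid supply, 6 members rose, 8 fell and 8 of 25 were near the no-drug level with both compounds, with a median of -0.02; with DEX alone 6 rose and 16 fell, with a median of -0.25. ASNS, asparagine synthetase, was at 17.7, 18.6 and 16.1 CPM and 18.7, 17.4 and 15.7 CPM (log2 -0.02, adjusted p = 0.851), and SHMT2, of mitochondrial serine metabolism, differed by -0.01. SLC3A2 and SLC7A5, the subunits of an amino acid exchanger, rose by 0.37 and 0.28. GDF15, a stress-induced cytokine, fell from 70.0, 67.6 and 59.3 CPM with no drug to 11.6, 14.2 and 16.3 CPM with both (log2 -2.22, adjusted p = 5.36e-10). It was the lowest member of the list with both, and the lowest value with DEX alone was -2.41. Between both compounds and DEX alone no member lay below -0.62, so the fall of GDF15 was not particular to the combination.

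Inflammatory genes did not move together. Of 17 tested, 8 rose and 5 fell with both compounds, beside 6 and 9 with DEX alone. With both, 2 were near the no-drug level (1 when any no-drug well or combination well 1 or 2 was left out). CXCL8, a neutrophil chemokine, rose from 9.26, 8.25 and 8.15 CPM to 16.2, 16.1 and 19.8 CPM, and PTGS2, cyclooxygenase-2, rose by 1.87. IL11, a cytokine of the IL-6 family, was at 214, 230.4 and 245 CPM with no drug, 11.9, 11.6 and 12.4 CPM with DEX and 52.5, 90.3 and 46.6 CPM with both.

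IL11 fell by 1.87 (SE 0.16, adjusted p = 3.19e-07) with both compounds and by 4.27 with DEX alone, so that its combination wells lay between the DEX and the no-drug wells. IL6 lay at 7.26, 6.86 and 7.1 CPM and 5.91, 7.64 and 7.79 CPM (log2 0.01, adjusted p = 0.94). Among 16 genes of NF-kB and its regulators, 6 rose and 5 fell, and 3 rose without combination well 2. With DEX alone 3 rose and 9 fell, with a median of -0.30, beside 0.08 with both. In the direct test 10 were higher with both than with DEX alone, or 6 without DEX well 1 or 3 or combination well 1 or 2. The count of lower members was 0, or 1 without DEX well 2 or combination well 3. With both compounds against no drug, NFKBIA, which encodes the inhibitor IκBα, rose by 1.12 and TNIP1, a further inhibitor, by 0.79. NFKBIZ, a nuclear coactivator, fell by 0.79.

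Of 23 tested STAT3 targets, 10 rose, 5 fell and 8 were near the no-drug level, with a median of 0.13; with DEX alone 15 rose and 6 fell, with a median of 0.23. NNMT, nicotinamide N-methyltransferase, rose from 110.1, 96.9 and 96.7 CPM to 549.5, 435 and 638 CPM (log2 2.42, adjusted p = 4.23e-10). MYC rose by 0.70 and CEBPB, a transcription factor of the acute-phase response, by 1.71, with 0.74 and 1.66 under DEX alone. FOS belongs to this list as well as to the immediate-early list.

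More interferon-stimulated genes fell than rose with both compounds. Of 23 tested, 12 fell and 2 rose (1 without no-drug well 2 or combination well 3), with a median of -0.21, and 8 were near the no-drug level (5 without combination well 3). With DEX alone 5 rose and 5 fell, the falls being 2 without no-drug well 1. With SH4-54 alone the median was -0.16, 20 of the 23 members lay below no drug, and 1 was called as fallen. IFIT1, an RNA sensor that blocks translation, was at 328, 295 and 321 CPM with no drug, 319.6, 317 and 329 CPM with DEX and 171, 188 and 215 CPM with both, and fell by 0.72 (SE 0.07, adjusted p = 7.61e-07).

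DDX58, which encodes the sensor RIG-I, fell by 0.84 and IFIT3 by 0.54. All combination wells of IFIT1, DDX58 and IFIT3 lay below all no-drug wells. By well, the list's median level was -0.37, -0.25 and -0.08 with both compounds, with well 3 closest to the controls. The wells with SH4-54 alone lay at -0.15, -0.10 and -0.13.

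Proteases and matrix genes moved in both directions. MMP3, stromelysin, rose from 0.0939, 0.166 and 0.141 CPM to 7.81, 7.75 and 4.82 CPM (log2 5.62, adjusted p = 2.56e-08). MMP1, interstitial collagenase, was at 18.7, 20.4 and 19.8 CPM with no drug, 8.55, 7.88 and 7.76 CPM with DEX and 26.1, 26.2 and 15.6 CPM with both, a log2 difference of 0.19 (adjusted p = 0.296) that passed as a rise of 0.41 without combination well 3 (adjusted p = 0.000204). PLAU, urokinase, fell by 1.21 and TIMP3, an inhibitor of metalloproteases, by 1.69. In all, 5 of 14 members of this list rose and 4 fell, beside 2 and 8 with DEX alone.

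THBS1, the matrix protein thrombospondin-1, was at 4278, 4196 and 4474 CPM with no drug and 11795, 11184 and 11053 CPM with both (log2 1.39, SE 0.04, adjusted p = 4.44e-12). Fibronectin, FN1, rose by 1.05 and the integrin ITGA5 by 1.09, against 1.76 and 1.56 with DEX alone, and both were lower than with DEX alone (adjusted p = 0.000125 and 0.000185). SNAI2 and SNAI1, repressors of epithelial genes, rose by 1.17 and 2.76. In the mesenchymal and matrix list there were 9 rises and 7 falls among 19 (4 falls without combination well 1), and of 12 integrins 5 rose and 5 fell (2 without no-drug well 1 and 3 without combination well 2).

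Of 17 luminal epithelial genes 9 fell and 4 rose. ELF3, an epithelial transcription factor, fell from 20.5, 18.1 and 16.3 CPM to 4.78, 4.75 and 5.44 CPM, and CLDN4, a tight junction claudin, fell by 1.06, whereas KRT7, a keratin, rose from 401, 379.7 and 390.1 CPM to 1132, 1066 and 1147 CPM. TFF1, a trefoil peptide, was at 3.26, 3.15 and 2.71 CPM with no drug, 0.542, 0.685 and 0.452 CPM with DEX and 3.19, 4.35 and 2.24 CPM with both (log2 0.08, adjusted p = 0.796).

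Among the largest falls outside these lists, CLDN2, a pore-forming claudin, fell from 27.2, 21.2 and 18.4 CPM to 1.55, 2.57 and 1.26 CPM (log2 -3.66, adjusted p = 2.24e-09), and LGR5, a receptor of the Wnt pathway, from 11.9, 11.2 and 10.6 CPM to 0.777, 1.27 and 1.12 CPM (log2 -3.40, adjusted p = 3.5e-11). Their log2 differences with DEX alone were -4.40 and -4.25. HIST1H4K met the same rule, but its no-drug wells ranged over 18.4, 476 and 274 CPM (adjusted p = 0.0114). HIST2H2BA, also in that rule (adjusted p = 0.0412), stood at 2.97, 172 and 3.09 CPM in the no-drug wells; the adjusted p was 0.921 without no-drug well 2, and it missed the threshold without any 1 of the DEX or combination wells. Histone genes are close copies, so their reads are uncertain.

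CLU, which encodes the chaperone clusterin, was the 1 gene of at least 5 CPM that DEX alone changed at least 2-fold, that differed the other way between both compounds and DEX, and that was near the no-drug level with both. DEX alone raised 2.1% of all genes and lowered 2.71% at least 2-fold. CLU was at 45.4, 43 and 42.2 CPM with no drug, 21.4, 22.6 and 20.8 CPM with DEX and 41, 53.7 and 40.2 CPM with both. Its log2 difference was 0.04 from no drug (SE 0.08, adjusted p = 0.707) and 1.05 from DEX alone (adjusted p = 2.92e-06). Combination wells 1 and 3 lay just below the no-drug wells and well 2 above them.

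In the housekeeping lists most differences were small. With DEX alone, 20 ribosome biogenesis genes, 24 proteasome subunits and 26 oxidative phosphorylation genes were near the no-drug level. So were 19 tRNA synthetases and 15 endoplasmic reticulum chaperones. The counts that follow are for both compounds. Of 23 ribosome biogenesis genes, 20 rose and 0 fell by the edgeR quasi-likelihood test (0 at an unadjusted p under 0.05 and 0 by DESeq2), 14 were also within the near limit, and the median was 0.20; NOP16, a nucleolar protein, rose by 0.50. Among 26 proteasome subunits 25 were near the no-drug level, with 8 rises (13 without combination well 3), and all 26 oxidative phosphorylation genes tested were near it, with 7 rises (4 without combination well 2). Of 19 tRNA synthetases 18 were near, and of 20 endoplasmic reticulum chaperones 15 were, with 9 rises (5 without no-drug well 2 or 3). HSPA5, the chaperone BiP, rose by 0.61 (adjusted p = 4.37e-08).

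Among 18 YAP and TEAD targets 9 rose, 2 fell and 10 were near the no-drug level, beside 10 near it with DEX alone. CTGF and CYR61, matricellular proteins and standard readouts of YAP, rose by 0.49 and 0.46, while with DEX alone they differed by -0.10 and -0.06 (adjusted p = 0.284 and 0.484). Of 18 clock genes 6 rose and 7 fell, of 14 BCL2 family genes 4 and 3, and of 15 genes of lipid oxidation and PPAR targets 5 and 4. Hypoxia and glycolysis genes split into 5 rises, 7 falls and 12 near the no-drug level among 21, with ADM, a vasodilator peptide, rising by 0.78 and HK2, a hexokinase, falling by 0.57. Over all genes tested, 21.1% rose, 21.6% fell and 47.9% were near, and the counts of these lists were not tested against those shares.

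By well, the level of a list is the median of its members' log2 CPM minus their no-drug means. Cholesterol genes lay at 0.36 to 0.38 with DEX alone and at -0.24 to 0.03 with both, while G2/M genes lay at -0.56 to -0.41 and glucocorticoid-induced genes at 1.74 to 1.91 with both.

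**Figure D5:**
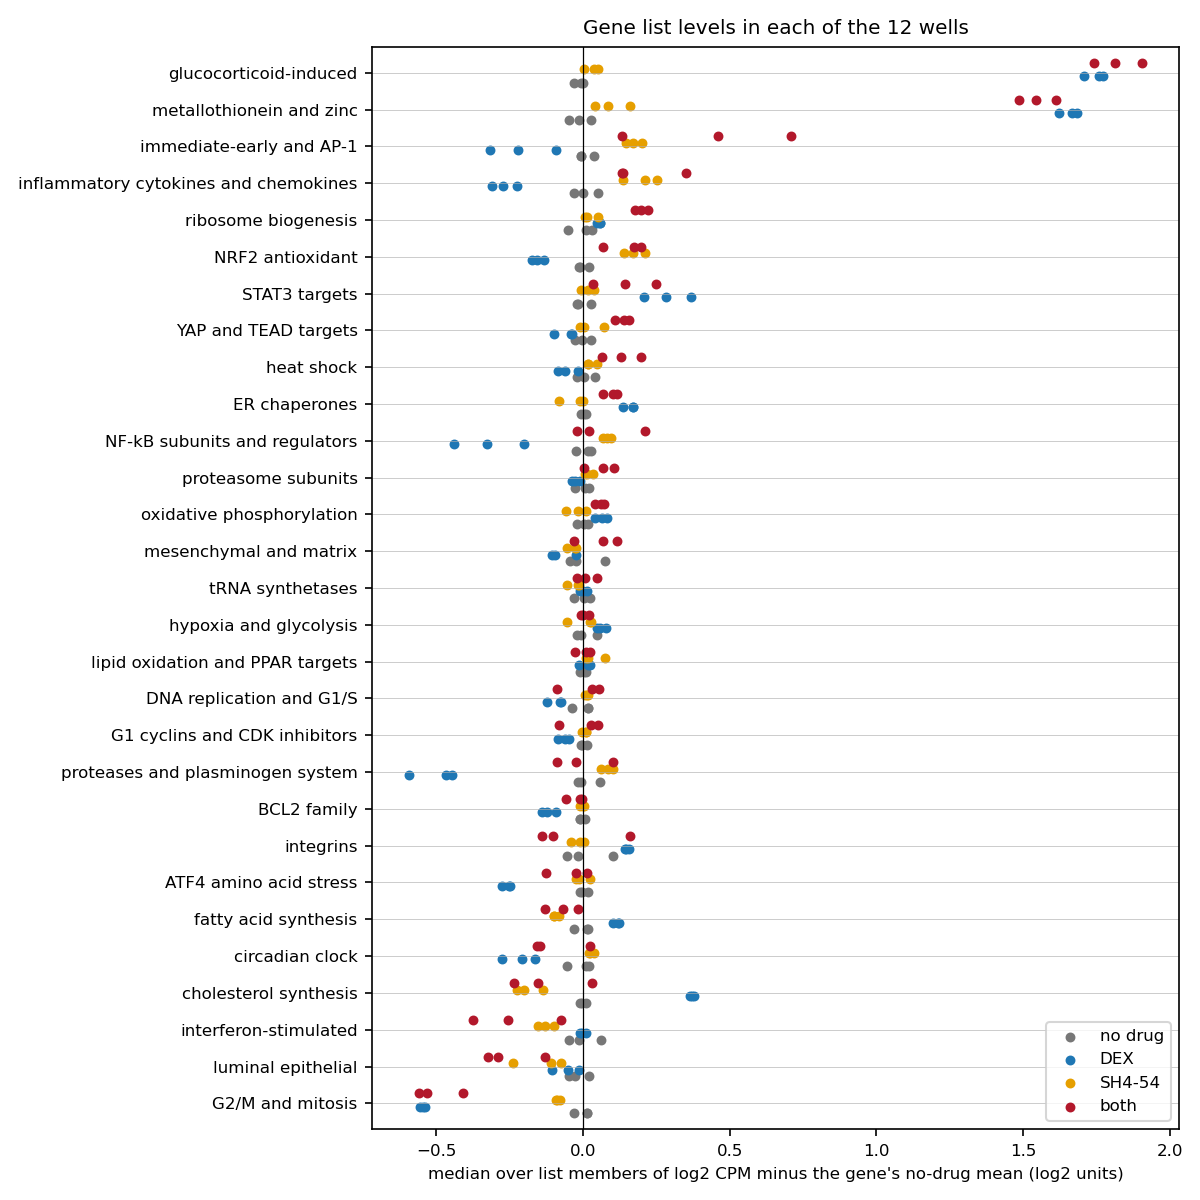
Median over the members of each gene list of log2 CPM minus the gene's no-drug mean (horizontal axis, log2 units), 1 point per well, for no drug, DEX, SH4-54 and both compounds. Glucocorticoid-induced, metallothionein and G2/M lists with both compounds lie beside DEX alone, cholesterol genes lie between -0.24 and 0.03, and immediate-early genes spread from 0.13 to 0.71.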

How the data were processed

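Wells of MDA-MB-231 cells were sequenced as ribosome-depleted, stranded, single-end RNA libraries, per the labels' protocols. The authors deposited raw counts per gene; the submitters' processing notes name HISAT2 2.1.0, SAMtools and featureCounts 1.5.1, with hg19 (GRCh37) as build. How strand and multi-mapping reads were handled, and the annotation, are not given in the sources used, so overlapping, antisense and near-identical genes are uncertain. Groups follow the sample titles, since the treatment label of the SH4-54 wells spells the compound differently.

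The tests ran in edgeR 4.0.16 under R 4.3.3 (filterByExpr, TMM scaling, quasi-likelihood F test, 1 model of 4 groups and 12 libraries, 8 residual degrees of freedom), with Benjamini-Hochberg adjustment over 14184 genes and a threshold of 0.05. The fit used no replicate block. A standard error is the size of the log2 fold change divided by the root of F. List levels and overlaps used log2 CPM with a prior count of 2. DESeq2 1.42.0 was an alternative, with other scaling, count filters, sample sets, a replicate block, the 10 most abundant genes removed, and each library left out.

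Members and gene lists were chosen with earlier results of these data known. Genes were named by rule: the 15 largest rises and falls with adjusted p under 0.05, at least 5 CPM in a group and no overlap; up to 6 members of each list by p; NR3C1, STAT3, STAT5A, STAT5B and FKBP5; genes returned to the no-drug level after a change of at least 2-fold with DEX; and genes changed at least 2-fold by the combination alone. Further list members, among them SQLE, NQO1, JUN, MMP1, TFF1, HSPA8, SERPINH1, PLK1, CDC20, SGK1, MAOA, KLF9, EGR1, ASNS, IL6, SOCS3, KIF11, CCNB2 and HSPA7, were named after their values were seen. A few genes are not reported here, though list counts include them. Lists are described by counts and medians, with no set test. Libraries of 1 group differed by more than counting noise (lowest chi-square per degree of freedom 4.39).

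The test was also tried on simulated data with known changes, built from the levels and spread fitted to these data. The changed genes were drawn only from those above a minimum mean level in CPM, so recovery at lower levels was not examined. The test recovered 34 of 50 changes of 1.25-fold, 42 of 50 of 1.5-fold and 50 of 50 of 2-fold. It made 186 calls, far fewer than the 6051 in the data, so it does not cover changes that broad. Promoter windows came from RefSeq, GRCh38.p14, while the counts use hg19, so no other coordinates are given.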

Additional observations from a re-analysis of the deposited data

Results flagged for a closer look

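Of 265 genes examined singly, 65 had an effect of DEX that differed between wells with and without SH4-54. They were called by the interaction term of the edgeR model (adjusted p under 0.05), beside 553 of 14184 genes, 3.9%. The 265 genes were chosen with values of these data known, in part by comparisons that make up the interaction. Their share of calls therefore cannot be measured against the 3.9%. The value is the log2 effect of DEX in the presence of SH4-54 minus its effect in the absence of SH4-54, so a positive value means that both compounds together lay above the sum of the single log2 effects. It was positive for 35 genes and negative for 30, and 10 were at least 2-fold. Interaction calls move with single libraries: the count over all genes was between 204 and 2046 when 1 library was left out, and left its main value by over 1.5 times for every library but SH4-54 well 1.

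Among heat shock genes, the log2 interaction was DNAJB1 0.63, HSPH1 0.45, HSPA1B 1.31, STIP1 0.22, HSPB1 0.50 and DNAJB4 0.34. Among immediate-early genes, the log2 interaction was JUN 1.01, ATF3 1.13, FOS 2.58 and SPRY2 0.31. Among inflammatory and NF-kB genes, the log2 interaction was CCL26 3.38, IL11 2.14, RELB 0.58 and PTGS2 0.96. Among amino acid supply and stress genes, the log2 interaction was SLC7A5 0.57, SLC3A2 0.43, SHMT2 0.29 and DDIT3 0.49. Among protease and matrix genes with positive values, the log2 interaction was TIMP3 0.61, MMP1 1.22, VIM 0.49, SNAI1 3.34 and PLAU 0.62. Among genes of YAP targets, NRF2 targets and other groups, the log2 interaction was CLU 1.01, KIF20A 0.38, TFF1 2.28, HMOX1 0.67, ADM 0.45, CD68 0.28, PSMD3 0.24, RRP12 0.28, AMOTL2 0.31, CYR61 0.35, SGK1 0.56 and PSMB1 0.14.

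Among cholesterol synthesis genes, the log2 interaction was FDFT1 -0.51, LSS -0.49, MSMO1 -0.59, DHCR7 -0.38, INSIG1 -0.68, SQLE -0.43 and STARD4 -0.31. Among fatty acid and lipid genes, the log2 interaction was FADS2 -0.36, FADS1 -0.29, SCD -0.81, ACSS2 -0.54, ELOVL1 -0.20 and PLIN2 -0.28. Among glucocorticoid-induced genes and metallothioneins, the log2 interaction was ANGPTL4 -0.85, MT2A -0.37, RGS2 -0.47, MT1X -0.70, MT1E -0.32 and FKBP5 -0.59. Among interferon-stimulated genes, the log2 interaction was IFIT3 -0.36, OASL -0.76, IFIT1 -0.45 and IFI44 -0.32. Among matrix, hypoxia and other genes, the log2 interaction was PGK1 -0.24, ITGA5 -0.45, FN1 -0.57, LOX -0.54, OSMR -0.36, KRT7 -0.20 and HIF1A -0.33.

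The calls of CCL26, IL11, FOS, SNAI1, TFF1, JUN, ATF3, MMP1, CLU and HSPA1B passed the threshold whichever library was left out. In all, 29 of the 65 calls did so and 36 were lost in at least 1 of the 12 fits without 1 library. Lost in 11 or 12 fits were the calls of AMOTL2, DDIT3, FKBP5, IFI44, PSMD3 and PSMB1. Lost in 9 or 10 fits were those of ADM, DNAJB4, HIF1A, KRT7, MT1E, OSMR, PLAU, SQLE, STARD4, STIP1, CD68, CYR61, FN1, LOX, PTGS2, RRP12, SGK1 and SPRY2, and in 1 to 8 fits those of OASL, SLC3A2, HMOX1, IFIT1, ITGA5, MT1X, INSIG1, SCD, SHMT2, ACSS2, ELOVL1 and HSPB1.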

How the results depend on the processing

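The counts of risen and fallen genes with both compounds against no drug kept within 1.5 times under every alternative run. Without 1 library, the total ranged from 5141 to 6233, rises of at least 2-fold from 303 to 349, falls of at least 2-fold from 244 to 297 and genes near the no-drug level from 6267 to 6865. Rises of at least 2-fold numbered 577 without a count filter and 192 with a stricter one, and the count of genes near the no-drug level with both compounds was 1344 with a limit of 1.1-fold. Against no drug, SH4-54 alone changed 185 genes with DESeq2, 176 without a count filter, 155 in a fit of the compared groups alone and 26 to 163 without 1 library. The interaction was called for 848 genes without a count filter and 204 to 2046 without 1 library, and both compounds against DEX for 2213 to 4633. Of 216 genes called among the 265 named, 205 kept the call under every setting that gave them a value, and no value reversed; 7 of the 216 had no value under at least 1 setting, and 200 of the other 209 kept the call. Replicate numbers did not pair the wells: same-numbered wells of different groups correlated between -0.0975 and 0.0926. With a replicate block, 5795 genes were called in the main comparison and 394 for the interaction. Fits with fewer wells assume that the remaining wells vary alike. A median standard error of 0.06 log2 units limits which small differences could be detected.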
